A study of Mus musculus with 5 samples.

Results

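Among regions of open chromatin in the distal limb ectoderm of mouse embryos, 5425 had a peak in 3 of the 4 ectoderm libraries and lacked one only in hindlimb replicate 1, with no peak in forebrain. They were chosen by the presence and absence of called peaks, by merging the peaks of all 5 lists on chromosomes 1 to 19 and X wherever 1 bp overlapped and keeping regions with a peak in forelimb replicates 1 and 2 and in hindlimb replicate 2 and none in the other 2 libraries. They made up 2.34% of 231437 regions. Because the peaks themselves chose them, their counts and strengths are descriptions and carry no p-value.

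ATAC-seq uses a transposase to tag accessible DNA, and was run here on embryos of the CD1 mouse stock with no genetic change or treatment named. Ectoderm of the distal forelimb (2 libraries) and of the distal hindlimb (2 libraries) was taken at E14.5 and loosened from the mesoderm with trypsin. Forebrain (1 library) was taken at E13.5 and digested with collagenase, so that the effects of tissue, stage and digestion cannot be told apart. Whether replicates were separate embryos or litters is not in the labels, nor is how many embryos went into a library, and differences between replicates may be technical.

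Limb ectoderm at this stage is a thin epithelium that forms epidermis, hair follicles and nails. Its basal cells are held to the basement membrane by integrins, laminins and collagen XVII, are filled with keratins 5 and 14, and are governed by transcription factors of the p63, AP-2, Grainyhead-like and Klf families. Promoters of widely used genes are open in most tissues, whereas enhancers, which act from inside or between genes, are often open in 1 or a few cell types. A peak list records only sites that passed a threshold, so a missing peak does not mean that a site was closed.

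Few of these regions overlapped an available promoter window, and 5 that did, at genes named in the text, are shown. Of the 5425 regions, 140 overlapped a RefSeq promoter window, which runs from 250 bases before a start to 50 bases after it, and 82 overlapped the window of a protein-coding gene. Krt5 encodes a basal keratin and Sprr1a a precursor of the cornified envelope, the hard shell of the outermost skin cells. Both were chosen for display after their values were seen. Aox4 encodes an aldehyde oxidase, Capn6 a calpain without protease activity and Depp1 a target of FOXO factors, and these are among the 10 strongest regions near a gene end. Gm13212, also among those 10 and with its summit 30 bp from a start, is not shown. The sequences are RefSeq's for GRCm38.p6, the assembly of mm10, read along each gene's own strand. Capitals mark matches on either strand to the AP-1 motif TGANTCA, the Grainyhead-like motif AACCNGTT, the Klf and Sp motif GGGNGGGG, the AP-2 motif GCCNNNGGC, and to the p53-family motif, a pair of CATG cores.

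Krt5: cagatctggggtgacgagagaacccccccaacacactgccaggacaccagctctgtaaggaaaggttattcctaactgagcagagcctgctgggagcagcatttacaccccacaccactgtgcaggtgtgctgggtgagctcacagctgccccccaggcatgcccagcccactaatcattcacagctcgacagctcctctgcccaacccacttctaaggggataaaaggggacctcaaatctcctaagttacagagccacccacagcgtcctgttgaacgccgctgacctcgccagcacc
Sprr1a: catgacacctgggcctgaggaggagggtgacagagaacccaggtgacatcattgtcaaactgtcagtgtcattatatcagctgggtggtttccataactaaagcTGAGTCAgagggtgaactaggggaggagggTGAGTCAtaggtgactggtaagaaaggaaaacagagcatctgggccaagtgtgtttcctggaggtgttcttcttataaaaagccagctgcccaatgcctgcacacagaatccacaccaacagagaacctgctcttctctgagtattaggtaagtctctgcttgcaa
Aox4: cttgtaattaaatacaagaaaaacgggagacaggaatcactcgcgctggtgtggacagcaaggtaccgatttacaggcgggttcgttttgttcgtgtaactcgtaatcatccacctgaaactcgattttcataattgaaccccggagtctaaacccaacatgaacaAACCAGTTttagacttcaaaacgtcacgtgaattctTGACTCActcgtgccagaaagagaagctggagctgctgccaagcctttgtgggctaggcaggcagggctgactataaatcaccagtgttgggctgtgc
Capn6: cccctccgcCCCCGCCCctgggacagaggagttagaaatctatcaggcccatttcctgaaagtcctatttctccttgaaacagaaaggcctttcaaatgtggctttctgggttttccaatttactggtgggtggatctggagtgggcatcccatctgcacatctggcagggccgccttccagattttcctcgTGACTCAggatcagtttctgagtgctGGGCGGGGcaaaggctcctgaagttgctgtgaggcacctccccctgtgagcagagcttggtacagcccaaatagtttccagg
Depp1: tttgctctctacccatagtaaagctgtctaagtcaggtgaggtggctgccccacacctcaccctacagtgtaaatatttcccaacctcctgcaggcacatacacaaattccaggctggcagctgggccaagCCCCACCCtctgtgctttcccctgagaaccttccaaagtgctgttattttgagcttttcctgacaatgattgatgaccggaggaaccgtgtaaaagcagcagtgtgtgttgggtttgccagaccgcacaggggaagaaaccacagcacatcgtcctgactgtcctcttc

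The Krt5 window lies on the minus strand of chromosome 15, at chr15:101712856-101713155, and the accessible region covered all 300 of its bases. The strongest summit was at base 136, and none of the 5 motifs matched, which says only that these letters are not in this window. The Sprr1a window is on the minus strand at chr3:92485832-92486131. Its region covered 216 of the bases with the summit at base 48, and the AP-1 motif matched at bases 105 and 135, counted from the 5′ end. The Aox4 window, on the plus strand at chr1:58210147-58210446, held a Grainyhead-like match at base 167 and an AP-1 match at base 203, and its summit was at base 254. The Capn6 window, on the minus strand at chrX:143827363-143827662, held an AP-1 match at base 193 and Klf and Sp matches at bases 10 and 219, the last beside the summit at base 218. The Depp1 window, on the plus strand at chr6:116650434-116650733, had a Klf and Sp match at base 132 and its summit at base 121. No base of these windows belonged to 2 matches.

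Each motif also occurred among promoters at large, in 0.703% to 39.8% of windows, and a single match is only a description. The AP-1 motif was in 14.9% of the 87 protein-coding promoter windows that these regions overlapped (8.20% to 24.2%; 95% exact Clopper-Pearson interval, as are the intervals below). It was in 15.6% of the 96 windows overlapped by regions open in all 4 ectoderm libraries, and in 7.04% of all 21044 windows of the same length. The Grainyhead-like motif was in 4.60% of the 87 windows, against 8.33% of the 96 and 1.97% of all. The Klf and Sp motif was in 46.0%, against 45.8% and 39.8%, and the AP-2 motif in 14.9%, against 18.8% and 20.1%. The p53-family motif was in 1.15% of the 87 windows, none of the 96 and 0.703% of all. These intervals cover counting error only.

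Hindlimb replicate 1 was the library most often missing from an otherwise shared ectoderm region. Of 10804 regions with a peak in the other 3 ectoderm libraries and none in forebrain, the 5425 without one in hindlimb replicate 1 were 50.2% (49.3% to 51.2%). The share counted in the same way was 11.2% for forelimb replicate 1 (681 of 6060 regions) and 9.41% for forelimb replicate 2 (559 of 5938). It was 3.72% for hindlimb replicate 2 (208 of 5587). Here and below, regions counted for those other libraries had to have a peak in hindlimb replicate 1, the shortest ectoderm list. The bases therefore differ, and the shares are not like for like. Where forebrain also had a peak, hindlimb replicate 1 lacked one in 29.4% of regions (6490 of 22058), and the other 3 libraries in 2.41%, 3.65% and 1.83%. Each region missing from hindlimb replicate 1 had a peak in hindlimb replicate 2, so the class does not separate the limbs.

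The list of hindlimb replicate 1 held 51392 peaks, against 73767 and 73627 in forelimb replicates 1 and 2, 78075 in hindlimb replicate 2 and 120280 in forebrain. Its median fold over local background was 3.24 in its own list, against 3.78 to 3.90 in the other ectoderm lists. Its background rate, a relative measure of depth drawn from the peak statistics, was 4.36 reads per position, above the 3.1 to 4.12 of the other ectoderm lists. The library was thus the weakest by number of peaks and by fold, but not by that rate. With every list shortened to its 51392 strongest peaks, 4781 of 10828 regions (44.2%) were missing only from hindlimb replicate 1, against 804 (11.7%), 604 (9.08%) and 276 (4.37%) from forelimb replicates 1 and 2 and hindlimb replicate 2. The part of library quality in the pattern was not tested.

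**Figure D1:**
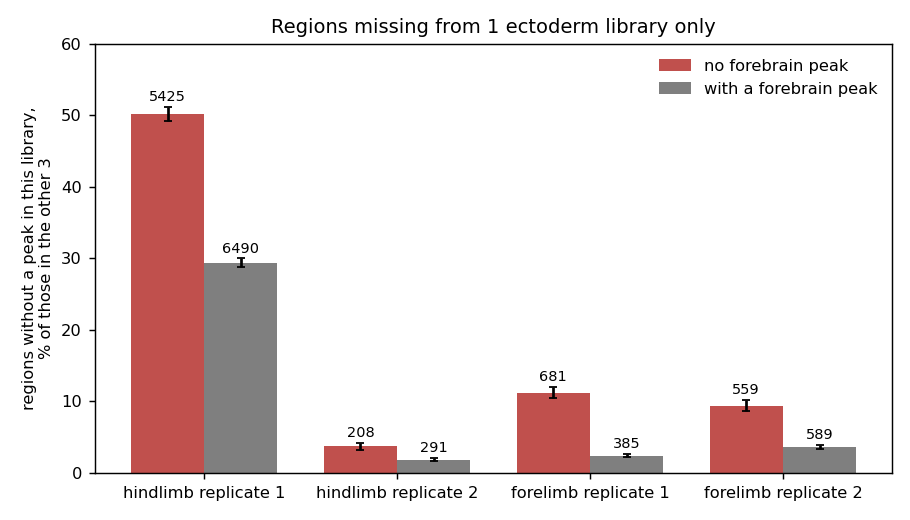
Percent of regions lacking a peak in 1 ectoderm library (y axis) among regions with a peak in the other 3, for each library (x axis) and with or without a forebrain peak. Bars are shares, error bars 95% exact intervals over regions and the numbers above them the regions missing. Hindlimb replicate 1 stands at 50.2% and 29.4%, and the other libraries lie between 1.83% and 11.2%. The regions counted for those others had to have a hindlimb replicate 1 peak.

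The regions missing from hindlimb replicate 1 were of middling strength in the lists that had them. Strength is given as the percentile of −log10 p within a library's own list, averaged over forelimb replicates 1 and 2 and hindlimb replicate 2. The lowest mean was 7.94, the median 58.0 and the highest 93.9, with quartiles of 46.2 and 68.6. In regions open in all 4 ectoderm libraries the median of the same 3-library mean was 76.6. A mean of 80 or more was reached by 298 of the 5425 regions, or 5.49% (4.90% to 6.13%), and by 2182 of 5379 regions open in all 4 libraries, or 40.6%. The regions were also narrower, with a median of 386 bp against 497 bp. Width is that of the merged peaks, and merging the peaks of a further library can only widen a region. Part of this difference is thus set by the construction. With −log10 q of 5 or more required in each of the 3 lists, 2874 regions were left, and 9 of the 22 basal epidermis genes described below had one.

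Each of the 3 libraries placed them at about the same height. The median percentile was 58.6 in forelimb replicate 1, 61.0 in forelimb replicate 2 and 62.1 in hindlimb replicate 2, against 74.6, 77.6 and 82.4 for regions open in all 4. The median fold was 4.36, 4.29 and 4.63 in the same 3 lists. Forelimb replicate 1 gave the highest percentile in 28.1% of the regions, forelimb replicate 2 in 35.6% and hindlimb replicate 2 in 36.3%. Across the 5425 regions the percentiles of the 2 forelimb replicates had a Spearman correlation of 0.449, that of forelimb replicate 1 with hindlimb replicate 2 was 0.362, and that of forelimb replicate 2 with hindlimb replicate 2 was 0.423. The regions are not independent points and were chosen for having a peak in each list, so these values are descriptions.

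**Figure D2:**
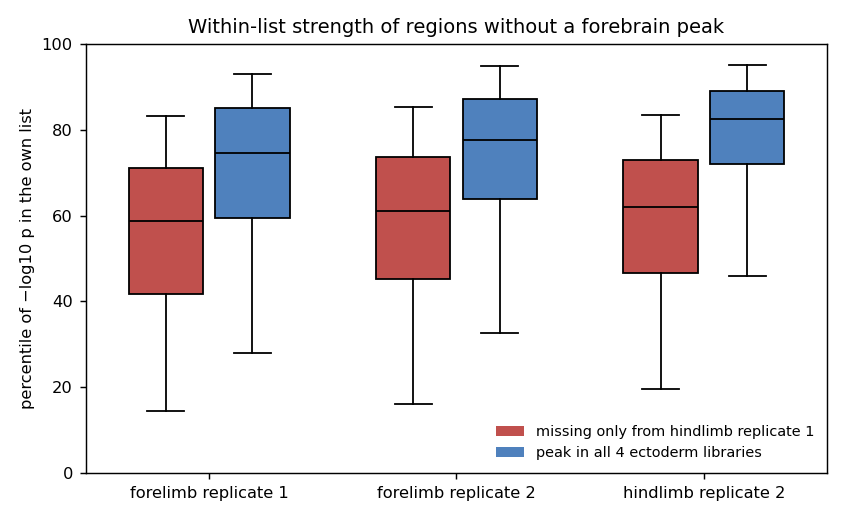
Percentile of −log10 p within its own list (y axis) in 3 ectoderm libraries (x axis), for regions missing only from hindlimb replicate 1 and regions open in all 4 ectoderm libraries, both without a forebrain peak. Boxes span the quartiles with the median as a line, whiskers run from the 5th to the 95th percentile of the regions, and the medians of the regions missing from hindlimb replicate 1 (58.6, 61.0 and 62.1) lie below those of the others (74.6, 77.6 and 82.4), with boxes that overlap.

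The presence of a peak in hindlimb replicate 1 followed the strength of the region in the other 3 lists. Without a forebrain peak, hindlimb replicate 1 had a peak in 16.7% of regions with a mean percentile of 10 to 20, in 30.4% at 50 to 60, in 58.5% at 70 to 80 and in 98.6% (707 of 717) at 90 to 100. The 10 regions without a peak in that last bin are the 10 strongest described below. At 50 to 60, forelimb replicate 1 had a peak in 80.5% of regions shared by the other 3 libraries. Forelimb replicate 2 had one in 84.9% and hindlimb replicate 2 in 94.7%. Regions counted there had to have a peak in hindlimb replicate 1, and their strength was averaged over lists that include it. The bins are thus not alike. Near the peak threshold, the smallest −log10 q of a chosen region was 1.32 in any of its 3 lists, and the smallest hindlimb replicate 1 value among regions open in all 4 was 1.31. Of those, 132 regions (2.45%) had a hindlimb replicate 1 value under 2.

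**Figure D3:**
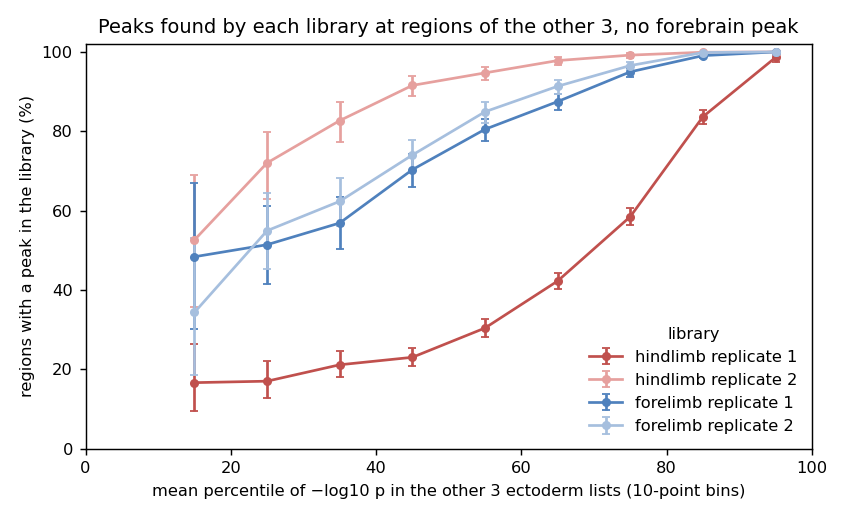
Percent of regions with a peak in the named library (y axis) by mean within-list percentile in the other 3 ectoderm libraries (x axis, bins of 10), without a forebrain peak. Points are shares and bars 95% exact intervals. Hindlimb replicate 1 climbs to 98.6% in the top bin. It lies at 30.4% in the bin from 50 to 60, below the 80.5% to 94.7% of the other libraries. The regions counted for those others had to have a hindlimb replicate 1 peak.

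Some regions lay close to a peak that would have changed their class. The nearest hindlimb replicate 1 peak was a median of 14.9 kb away, within 1 kb of 338 regions (6.23%) and within 500 bp of 181 (3.34%), and the smallest gap was 6 bp. The nearest forebrain peak was a median of 5.89 kb away and within 500 bp of 383 regions (7.06%), against 6.1 kb and 353 regions (6.56%) for regions open in all 4 libraries. Dense local background was less frequent than in those. In 762 regions (14.0%), against 1530 (28.4%), it was over 2 times the library's rate. The highest value of any peak in a region was taken, and regions open in all 4 libraries have peaks from 1 more list. Their share can thus be raised by the construction, and how much of the difference this makes was not tested.

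The regions lay mostly inside or between genes and seldom at gene ends. At most 1 kb from an end of a protein-coding gene lay 210 of them, or 3.87% (3.37% to 4.42%). Inside a gene were 43.6%, outside but within 100 kb of a gene 32.6%, and farther away 19.9%. Regions open in all 4 ectoderm libraries had nearly the same shares, 3.83%, 42.3%, 33.6% and 20.2%, and each pair of intervals overlapped. Of regions missing from hindlimb replicate 1 that did have a forebrain peak, 18.5% were at gene ends, and of regions open in all 5 libraries 57.0% were. Forebrain-only regions had 3.13%, and all regions 7.90%. When windows of 150 bp either side of the strongest summit replaced merged regions, the share at gene ends was 7.93%, against 9.58% for regions open in all 4. Start sites alone, on the chromosomes with promoter windows, lay within 1 kb of 131 of 5236 regions (2.502%), against 135 of 5201 (2.60%).

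Among regions of like strength, the share found by hindlimb replicate 1 was compared between gene ends and other positions. Of gene-end regions without a forebrain peak in the bin from 50 to 60, 28.8% (18.8% to 40.6%) had a hindlimb replicate 1 peak. At other positions the share was 30.5%. Where forebrain also had a peak, the share in that bin was 56.5% (52.0% to 60.8%) at gene ends. Elsewhere it was 32.5% (30.3% to 34.9%). The difference between these contrasts was not tested.

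**Figure D4:**
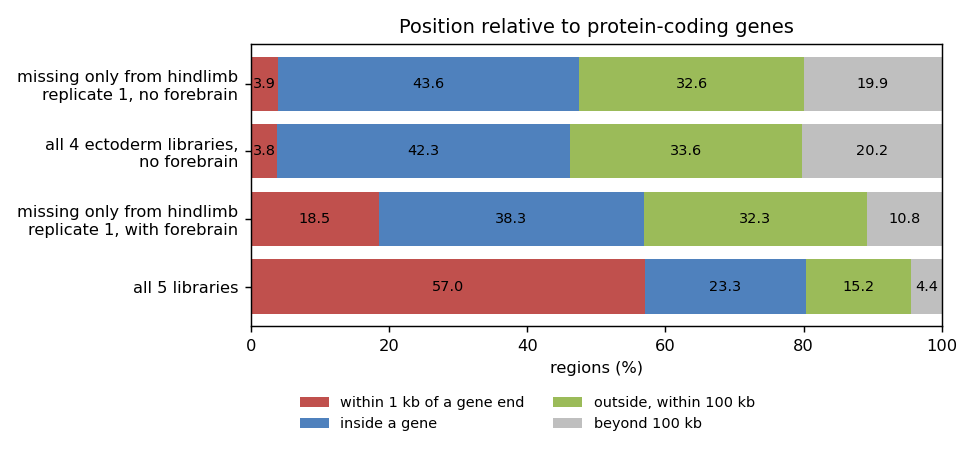
Percent of regions (x axis) at gene ends, inside genes, outside but within 100 kb and beyond 100 kb of a protein-coding gene, in stacked bars for 4 sets of regions (y axis). Regions missing only from hindlimb replicate 1 and regions open in all 4 ectoderm libraries have nearly equal shares (3.87% and 3.83% at gene ends), and regions open in all 5 libraries have 57.0% at gene ends.

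The regions more often had another ectoderm region nearby than all regions did. A region open in all 4 ectoderm libraries lay within 20 kb of 12.8% of them (11.9% to 13.7%). The share was 15.9% for the 4-library regions among themselves, 9.60% for regions missing from hindlimb replicate 1 with a forebrain peak, and 9.25% for all regions. Another region missing only from hindlimb replicate 1 lay within 20 kb of 11.6% of them, against 13.4% of the 4-library regions and 9.50% of all regions.

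The strongest of the regions were scattered and included 4 that were more than 100 kb from any protein-coding gene. The highest mean percentile, 93.9, was at chr8:83619570-83620027, 7.1 kb from Dnajb1, which encodes a co-chaperone of Hsp70. Its fold was 11.6 in forelimb replicate 1, 9.59 in forelimb replicate 2 and 10.7 in hindlimb replicate 2, so it was high in all 3 lists. The next, inside Nlrp4b at chr7:10714379-10714825, had folds of 12.2, 10.2 and 13.3 in the same libraries. A region 38.5 kb from Slco3a1, a transporter of organic anions, had 11.6, 13.54 and 9.69. A region on chromosome X at chrX:82650368-82650772, beyond 100 kb of any protein-coding gene, had 11.96, 12.2 and 14.8. The other 6 included regions inside Csmd3, which encodes a large membrane protein with CUB and sushi domains, and Osbpl5, which encodes an oxysterol-binding protein relative, and 1 region 66.3 kb from Rfpl4b. None of these genes is in the epidermal lists.

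The 10 strongest regions at gene ends lay at genes of varied kinds. Cyp2b19, a cytochrome P450 of keratinocytes, had the highest mean percentile at a gene end, 89.7. Its region at chr7:26773217-26773650, 836 bp from an end and 16324 bp from the nearest start, had a fold of 7.86 in forelimb replicate 1, 12.1 in forelimb replicate 2 and 6.81 in hindlimb replicate 2. Krt42, a type I keratin, had folds of 5.58, 5.22 and 6.66 at chr11:100261965-100262805, 7663 bp from the nearest start. Capn6, whose region had its summit 33 bp from an end of the gene, had 9.76, 9.85 and 10.7. Aox4 had 6.33, 6.25 and 6.25, a nearly level set, and Depp1 had 6.25, 4.64 and 7.70. The summit of the Depp1 region lay 130 bp from that gene and inside Rassf4, to which the region was assigned. Sult1e1, which sulfates estrogens, had 6.33, 8.97 and 8.12, and Rnf128, a ubiquitin ligase, had 10.7, 9.41 and 6.44. Olfr304, an olfactory receptor gene, had 10.1, 10.0 and 8.39, Defb2, a beta-defensin gene, had 9.09, 7.91 and 7.61, and Gm13212 had 7.19, 7.24 and 6.60.

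When each was given to its closest protein-coding gene up to 100 kb away, 4344 regions fell on 3297 of 21627 genes, or 15.2%. A single region was assigned to 2550 of these genes, 2 regions to 540 and 3 or more to the rest. Of the 3297 genes, 1227 (37.2%) also had a region open in all 4 ectoderm libraries. Those 1227 were 39.9% of the 3075 genes with such a 4-library region. The genes with most regions were long. Median length was 574.6 kb for genes with 5 or more, 58.8 kb for genes with any and 17.3 kb for all genes.

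The gene with most regions missing only from hindlimb replicate 1 was Pcdh15, a protocadherin known from the tip links of inner ear hair cells, with 8 of its 137 regions of any kind. Ptprd, a receptor tyrosine phosphatase, had 7 of 210. Lsamp, a neural cell adhesion protein, had 6 of 199, beside 9 open in all 4 libraries and 88 of forebrain only. Srgap1, a GTPase-activating protein of the Slit and Robo pathway, had 6 of 39 regions (15.4%) and none open in all 4 ectoderm libraries. All 6 lay inside the gene, with mean percentiles of 42.6 to 66.6. Slc4a4, a sodium bicarbonate cotransporter, likewise had 5 of 54 (9.26%) and none in all 4. Arid1b, a subunit of a chromatin remodelling complex, the junction scaffold genes Magi1 and Magi2, and Auts2 had 6 each, and Lmo7, which encodes a protein of adherens junctions, Oxr1 and Zswim6 had 5 each. Beside the 2.38% of all assigned regions, the shares among these 12 genes ran from 3.02% in Lsamp to 15.4% in Srgap1. The genes were ranked by this count, so the shares are not a finding.

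Most genes of the basal epidermis list had at least 1 of the regions, and the list held about as many that all 4 ectoderm libraries shared. Of 22 basal genes, 14 had at least 1 region missing only from hindlimb replicate 1, against 15.2% of all protein-coding genes. They held 27 such regions, and the 22 genes held 31 open in all 4. Of these 58 regions, 46.6% (33.3% to 60.1%) lacked a hindlimb replicate 1 peak, against 50.3% over all genes. The median gene of the list had 15 regions of any kind, against 4 over all genes, and 6.46% of the list's regions were of the chosen kind, against 2.38%. When only regions inside a gene were assigned to it, 7 of the 22 genes had one.

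**Figure D5:**
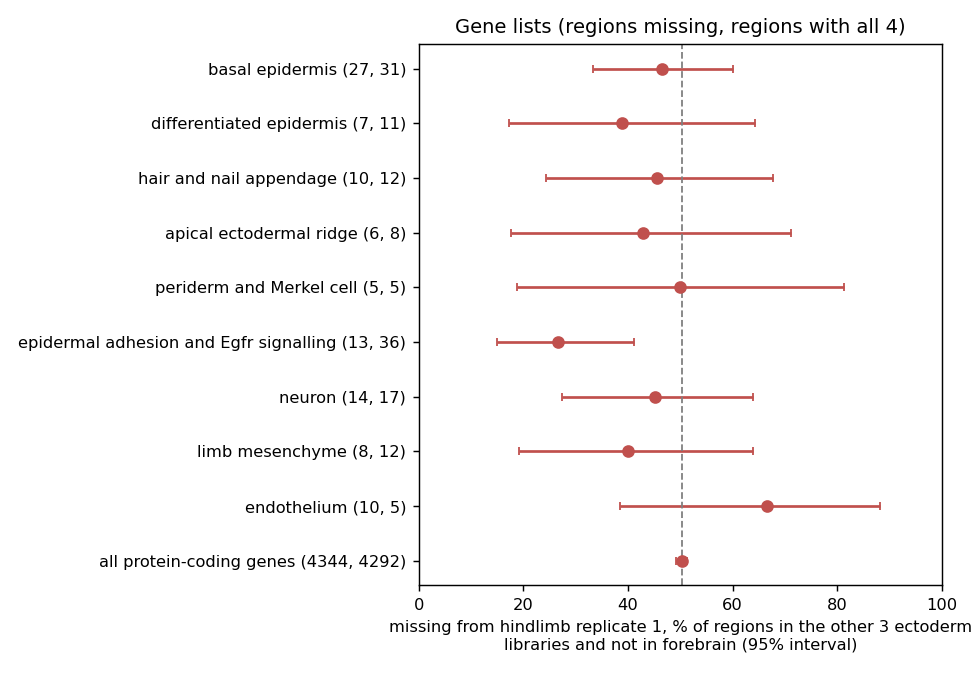
For each gene list with at least 10 such regions, the percent without a hindlimb replicate 1 peak among regions with a peak in the other 3 ectoderm libraries and none in forebrain. Points are shares, bars 95% exact intervals, the dashed line the share over all genes, and numbers in brackets the regions without and with a hindlimb replicate 1 peak. The basal epidermis list lies at 46.6%, the adhesion and Egfr list at 26.5% and the endothelium list at 66.7%, beside 50.3% over all genes.

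The 2 keratin genes that mark basal cells had regions at the gene itself. Krt5 had 3 regions of the kind and none open in all 4 libraries. The one over its start, at chr15:101712728-101713215, had a fold of 3.67 in forelimb replicate 1, 3.39 in forelimb replicate 2 and 4.74 in hindlimb replicate 2, and covers the promoter printed above. The nearest hindlimb replicate 1 peak was 16700 bp away. A second, with its summit 996 bp from the gene end, had 3.17, 2.11 and 2.96, and another, 3.22 kb away, had 3.80, 3.22 and 2.51. All 3 were in dense local background, 2.66 to 2.79 times the library's rate. Krt14 had 2 regions, 1 of them with its summit 80 bp from an end of the gene, and 1 open in all 4.

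Other basal genes carried the regions inside the gene or in their flanks. Dst, a plakin of the hemidesmosome, and Lama3, a chain of the laminin under the epidermis, had 3 each, beside 3 each open in all 4 libraries. The strongest in Dst, inside the gene at chr1:34127765-34128110, had folds of 7.42 in forelimb replicate 1, 7.02 in forelimb replicate 2 and 6.87 in hindlimb replicate 2. Tfap2c, an AP-2 factor, had 3 in its flank, 45.0 to 85.5 kb away, and Itga6, an integrin of the hemidesmosome, and Klf5, a Krüppel-like factor of epithelia, had 2 each, all with none open in all 4. Cdh1, which encodes E-cadherin, had 2 inside the gene, and Grhl2, a Grainyhead-like factor of epithelia, had 2 in its flank. Krt15, Col17a1, Lamb3, Perp and Ovol1 had 1 each. The remaining genes had none. Among these, Trp63, which encodes p63, had 6 regions open in all 4 libraries, and Grhl3, Tfap2a and Epcam had 2 each. At gene ends, 12 of the 22 basal genes had a peak in hindlimb replicate 1, against 19 in each of the other ectoderm libraries and 14 in forebrain. The same count over all protein-coding genes is not given, and hindlimb replicate 1 had the shortest ectoderm list. The difference is thus not shown to be a trait of basal genes. It was not alike in every epidermal list. Of 33 adhesion and Egfr genes, 31 had one in each of the 4 ectoderm libraries, and of 20 genes of differentiated epidermis 10 had one in hindlimb replicate 1, against 12, 10 and 13 in forelimb replicates 1 and 2 and hindlimb replicate 2.

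The lists of outer skin layers, appendages and the limb ridge held fewer regions than the basal list. Of 20 genes of differentiated epidermis, 6 had 7 regions in all, beside 11 open in all 4 libraries. They were 4.52% of the list's regions, against 2.38% over all genes. The share missing was 38.9% (17.3% to 64.3%), an interval that holds the 50.3% of all genes. The region at the Sprr1a start, printed above, had a fold of 5.48 in forelimb replicate 1, 5.33 in forelimb replicate 2 and 3.80 in hindlimb replicate 2, and a hindlimb replicate 1 peak lay 124 bp from its edge. Ivl, which encodes involucrin and was chosen after its values were seen, had 1, 5.35 kb away, with 5.13, 5.13 and 4.29. Dsg1a, a desmosomal cadherin gene, had 2. Of 20 hair and nail genes, 7 had 10 regions, among them 3 for Lef1, a nuclear effector of Wnt signals, 2 for Lgr5, a Wnt pathway receptor of stem cells, and 1 for Hoxc13, which is needed for hair and nails. The list named for the apical ectodermal ridge, the signalling rim of the limb bud, also holds dorsoventral limb genes such as Wnt7a. Of its 20 genes, 6 had 1 region each, among them Wnt7a, Dlx2, Sp6, Wnt3 and Msx2. The regions were 3.13% of those at hair and nail genes and 2.05% of those at genes of the ridge list, against 2.38% over all genes. The shares missing were 45.5% and 42.9%, with intervals that held the 50.3% of all genes.

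The adhesion and Egfr list had a lower share missing from hindlimb replicate 1. Of its 33 genes, 9 had 13 regions, against 36 open in all 4 libraries. The share missing was thus 26.5% (14.9% to 41.1%), against 50.3% over all genes. The 13 regions were 3.37% of the list's regions, against 2.38% over all genes. Over both kinds together, the list's regions had a median mean percentile of 75.1, against 66.3 over all genes. Regions open in all 4 are the stronger kind, so this pooled median also depends on the share missing. The 13 missing regions alone had 56.4, against 57.7 for missing regions over all genes. The part of strength in the share was not tested. Egfr, the receptor of epidermal growth factors, had 3 missing and 7 in all 4. Dsp, which encodes desmoplakin, had 2, and the stronger, 6.13 kb from the gene at chr13:38145009-38145445, had folds of 6.19 in forelimb replicate 1, 7.40 in forelimb replicate 2 and 9.40 in hindlimb replicate 2. Jun, an AP-1 subunit, had 2, and the claudin gene Cldn1, Cdh3, Dsc2, Gjb6, Areg and Btc had 1 each.

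Marker lists of cells that may come along with the ectoderm also held some of the regions. Of 14 endothelial genes, 7 had 10 regions, against 5 open in all 4 ectoderm libraries, and 66.7% (38.4% to 88.2%) lacked hindlimb replicate 1, an interval that holds the 50.3% of all genes. The 10 regions were 4.83% of the list's regions, against 2.38% over all genes. The median mean percentile of these 15 regions was 53.7, below the 66.3 over all genes. Flt1, a receptor of vascular growth factor, had 3. The first had folds of 4.30 in forelimb replicate 1, 3.92 in forelimb replicate 2 and 5.25 in hindlimb replicate 2, and a forebrain peak lay 143 bp from its edge. Egfl7 had 2, and Kdr, Cdh5, Pecam1, Erg and Sox17 had 1 each. At the ends of the 14 endothelial genes, peaks were found at 9 in forelimb replicate 1, 5 in forelimb replicate 2, 3 in hindlimb replicate 1, 5 in hindlimb replicate 2 and 11 in forebrain. No count over all protein-coding genes stands beside these, and hindlimb replicate 1 had the shortest ectoderm list. The part of endothelial cells in the regions was not tested.

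Blood, mesenchymal, neural and other lists also had some. Of 12 blood and immune genes, 3 had 4 regions and none had a region open in all 4 libraries. Those 4 regions were 3.45% of the list's regions, against 2.38% over all genes. Of 20 limb mesenchyme genes, 5 had 8, beside 12 in all 4, and of 20 neuronal genes 7 had 14, beside 17. That was 1.40% of the regions at mesenchyme genes and 2.11% of those at neuronal genes, both below the 2.38% over all genes, although the median gene had 16.5 and 20 regions of any kind, against 4. Forebrain progenitor genes (3 of 20), housekeeping genes (3 of 20) and melanocyte genes (1 of 10) held 3, 3 and 1 regions. Muscle genes (1 of 10) and periderm and Merkel cell genes (3 of 12) held 1 and 5. In the same order, these were 0.965%, 3.57%, 0.606%, 1.11% and 3.38% of each list's regions, against 2.38% over all genes. At gene ends, peaks marked 9, 6, 6 and 7 of the 20 progenitor genes in forelimb replicates 1 and 2 and hindlimb replicates 1 and 2, against 19 in forebrain. Housekeeping genes had 18 of 20 in every library.

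At the HoxC cluster, whose posterior genes act in hair and nail formation, 2 regions were missing only from hindlimb replicate 1. Another 4 were open in all 4 libraries. The 2 regions were 4.76% of those assigned to the HoxC genes, against 2.38% over all genes. The first, at chr15:102862533-102862831, lay between Calcoco1 and the cluster, 58.5 kb from Hoxc13, with folds of 4.64 in forelimb replicate 1, 3.39 in forelimb replicate 2 and 4.06 in hindlimb replicate 2. Its mean percentile was 43.3. The other, at chr15:103041755-103042404, lay 5.24 kb beyond Hoxc4 with 2.90, 3.49 and 3.03 and a mean percentile of 27.6. Both were below the median strength of the 5425 regions.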

How the data were processed

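ATAC-seq peak lists of 5 libraries were used. Per the submitters' processing notes, the authors used MACS2 2.1.1.20160309 and Bowtie2 2.3.5 on the mm10 build, with cutadapt 1.16, bedtools and Picard. Whether reads were moved to the transposase cut was not stated there. A separate list was deposited for each library, so no replicates were pooled. The deposited lists give each peak a score (not used), a fold over local background, and a −log10 p-value and −log10 q-value. Their smallest −log10 q, 1.30 to 1.31, is that of a q threshold of 0.05. Fold and p are the authors' values and were used within their own list.

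Intervals listed with several summits were counted once and peaks were merged with Python 3.11.15, pandas 2.3.3 and SciPy 1.17.1. Background rates were solved from fold and p under a Poisson model, as read totals were not used here. They compare depth only if reads were extended alike. Genes are those of a RefSeq table of GRCm38.p6. All 262 entries of 15 lists were found. The regions and lists were chosen with earlier results of these data known. Gene ends stand in for start sites, since the gene table has no strand. The sequences are of the reference strain, not CD1.

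Genes named are the 12 with most regions, those of the 10 strongest regions and of the 10 strongest at gene ends, up to 4 per list, and the HoxC genes. Other genes, including listed genes past the fourth, were named after their values were seen. Intervals are 95% exact Clopper-Pearson intervals and reflect counting error alone. No comparison between groups was tested, and Dixon's outlier rule was applied to 4 measures of the ectoderm libraries. Merging and the solving of pileups were tested on simulated data. Alternatives were stricter q thresholds, equal list lengths, other joins and distances, and leaving out each ectoderm library.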

Additional observations from a re-analysis of the deposited data

Results flagged for a closer look

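Over the 4 ectoderm libraries as 1 group, 2 of 4 measures placed hindlimb replicate 1 far from the others. The first was the number of regions missing only from that library with no forebrain peak, 5425, against 208 to 681 for the other libraries. Its gap to the nearest other value was 0.909 of the whole range, above Dixon's 95% critical value for 4 samples. The second was the number of distinct peaks, 51392, where the gap was 0.833 of the range, just above it. Median fold (0.814) and background rate (0.460) were within the critical value. The regions were chosen because this library lacked them and had been taken as the weakest, so both values restate that choice and support nothing. Chance alone passes the critical value in about 1 in 20 groups, the measures share the same lists, and the 4 libraries come from 2 limbs.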

How the results depend on the processing

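Of 125 values under alternatives of 10 results, 88 did not move and 37 moved, and the cause was not tested except where the construction sets it. The percent without a hindlimb replicate 1 peak (50.2) was 56.2 with −log10 q of 5 or more for presence and absence, 39.8 with it for presence alone, 44.2 with lists of equal length and 54.8 without regions of local background over 2 times the rate. It was 58.7 to 59.6 without any 1 of the other ectoderm libraries. The number of regions was 2874 with the stricter q for presence alone, and 7944 to 10804 without an ectoderm library (8957 without forelimb replicate 1, 8453 without forelimb replicate 2), where fewer conditions are set. The share at gene ends (3.87%) was 4.44% with the stricter q, 7.93% with summit windows, 2.81% without high background, 8.70% within 2.5 kb, 2.45% within 0.5 kb and 2.502% with start sites, an alternative chosen after seeing the data. Without an ectoderm library it was 3.43% to 3.86%. For regions open in all 4 libraries it was 7.75% within 2.5 kb and 2.49% within 0.5 kb. The share with a mean percentile of 80 or more (5.49%) was 13.55% and 10.4% with the stricter q for both or presence alone, 7.72% with equal lists, 9.16% by fold, and 3.53% to 23.0% without a library, the highest without hindlimb replicate 1. Basal genes with a region (14) were 9 with the stricter q for presence alone, 7 inside the gene only and 14 to 19 without a library. The adhesion and Egfr share lay between 16.7% and 37.8%, and the endothelial share between 55.6% and 83.3%. Requiring no hindlimb replicate 1 peak within 500 bp, also chosen after seeing the data, left 5244 regions. No paired analysis was possible because no comparison between groups was tested.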

Other observations

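On every chromosome some regions were missing only from hindlimb replicate 1. Their share of a chromosome's regions was lowest on chromosome 2 (2.08%) and highest on chromosome 19 (2.92%), with 2.59% on the X.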
